A study of Mus musculus with 74 samples.

Results

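Bcl6 knockout quadriceps was set against Cre-negative quadriceps at the level of poly(A) RNA, with every gene of the table as a member. The comparison holds 9 of the 74 samples of the series, and 13732 of its 24940 genes had a mean of at least 10 tags on the authors' log2 scale and were tested. The 5 knockout libraries came from C57BL/6 mice of genotype AEC-Esr Cre (+):Bcl6 fl/fl given tamoxifen (TMX), and the 4 control libraries from C57BL/6 Bcl6 fl/fl mice without Cre given the same drug. Both groups thus carry the floxed allele and had tamoxifen, and they differ in the Cre transgene and in the deletion together, so the effects of the transgene and of the deletion cannot be told apart in these 9 libraries. The labels name neither the promoter behind AEC-Esr Cre, nor age, sex or the time after tamoxifen. Other samples are used beside it. Poly(A) RNA of 4 AEC-Esr Cre (+):Bcl6 fl/fl mice given oil was compared with the same 5 knockouts, so these 2 comparisons share the knockouts. RiboTag mRNA came from 4 AEC-Esr Cre (+):Bcl6 fl/fl and 4 AEC-Esr Cre (+) mice, all with a tagged ribosomal protein and tamoxifen, and shares no library with the main comparison. The labels list an antibody to the tag for that RNA as well, so its source, all muscle RNA or RNA pulled down with ribosomes, is uncertain.

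BCL6 is a zinc finger repressor that binds DNA through a motif close to that of the STAT factors and recruits corepressors such as NCOR1 and BCOR, which bring histone deacetylases. In muscle its targets include feedback genes of growth hormone signalling such as Socs2, and growth hormone acts on muscle partly through local Igf1. Acetylation of histone H3 at lysine 27 (H3K27ac) marks active promoters and enhancers, and was measured in 1000 bp windows on BCL6 peaks in 3 knockout and 3 Cre-negative mice. Their numbers match those of RNA libraries (P1896, P1900 and P1907 against P1898, P1899 and P1906), by which they are named below.

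Of the called genes, 12 had a RefSeq promoter that both lay within 1000 bp of a BCL6 peak centre and held the 9-letter BCL6-type sequence TTCCTNGAA, on either strand, in the 250 bases before its start. Promoters of 4 of them, 2 raised and 2 lowered, are shown because they carry a peak, the letters and a change in RNA, and were chosen after their values were seen. They run in the direction of transcription (build GRCm38.p6, sequences from RefSeq) with the match in capitals. A match on the other strand reads TTCNAGGAA. The sequence is a special case of the STAT-type TTCNNNGAA, so a match does not separate BCL6 from STAT factors. The raised genes are Igfals, whose product holds IGF1 in a circulating complex (chr17:24877981-24878230, plus strand), and the lysine methyltransferase gene Smyd2 (chr1:189922292-189922541, minus strand). The lowered genes are Gbp7, an interferon-inducible GTPase gene (chr3:142530086-142530335, plus strand), and Ppp1r12b, a myosin phosphatase subunit gene (chr1:134803843-134804092, minus strand).
Igfals: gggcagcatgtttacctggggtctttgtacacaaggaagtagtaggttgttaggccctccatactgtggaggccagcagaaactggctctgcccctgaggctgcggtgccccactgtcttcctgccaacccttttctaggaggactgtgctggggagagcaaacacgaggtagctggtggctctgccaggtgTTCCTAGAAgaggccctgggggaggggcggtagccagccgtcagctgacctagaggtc
Smyd2: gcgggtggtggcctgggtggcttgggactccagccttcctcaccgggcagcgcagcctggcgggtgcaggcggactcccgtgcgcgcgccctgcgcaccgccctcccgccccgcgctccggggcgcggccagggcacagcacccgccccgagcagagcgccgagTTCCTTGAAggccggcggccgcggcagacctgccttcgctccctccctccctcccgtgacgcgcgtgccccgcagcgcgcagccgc
Gbp7: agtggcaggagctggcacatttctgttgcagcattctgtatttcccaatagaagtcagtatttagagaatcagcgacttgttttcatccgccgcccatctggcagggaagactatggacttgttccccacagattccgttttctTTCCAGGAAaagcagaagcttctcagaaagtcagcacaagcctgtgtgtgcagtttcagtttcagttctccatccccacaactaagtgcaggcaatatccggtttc
Ppp1r12b: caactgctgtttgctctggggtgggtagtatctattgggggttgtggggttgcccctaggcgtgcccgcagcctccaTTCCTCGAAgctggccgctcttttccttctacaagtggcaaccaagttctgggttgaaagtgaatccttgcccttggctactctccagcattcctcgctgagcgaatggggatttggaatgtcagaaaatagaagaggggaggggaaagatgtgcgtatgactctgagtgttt
The sequence was present in 1.31% of all 32851 promoters of this length and in 3.66% of the 2021 within 1000 bp of a peak centre. By RNA call, it was present before at least 1 start in 1.73% of the 636 raised genes with a promoter in the table, 1.65% of the 967 lowered and 1.25% of all 10647 tested. A match is a description of the letters and no measure of binding. RNA of Igfals rose by 0.33 and of Smyd2 by 0.10, and RNA of Gbp7 stood at 8.44, 8.52, 8.47, 8.37 and 8.44 in knockouts and 9.02, 8.76, 9.23 and 9.09 in controls (change -0.58, SE 0.0693, adjusted p = 0.000101).

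The 9 libraries held about 6700000 to 7450000 tags each, and levels below are the authors' log2 values, always in the order P1895, P1896, P1900, P1907 and P1911 for knockouts and P1898, P1899, P1906 and P1909 for Cre-negative mice. A change is the knockout mean minus the Cre-negative mean on that scale, and the transform is not named, so its size is on that scale only. The median SD of a gene was 0.0351 among knockouts and 0.0393 among Cre-negative libraries. The first principal component held 50% of the variance and separated the groups. The labels do not say that each library came from a separate animal beyond its number, so p-values measure the spread between these libraries. Muscle fibre markers were high in every library, with Acta1 from 13.05 to 13.26. The 4 Y-linked genes tested did not pass (changes from -0.09 to 0.01), and all 9 libraries expressed each of them.

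Bcl6 RNA, the targeted transcript, was slightly lower in knockout poly(A) RNA and did not pass in RiboTag mRNA. It stood at 10.09, 10.22, 9.99, 10.25 and 9.98 in the knockouts and 10.21, 10.41, 10.36 and 10.38 in the Cre-negative libraries. Knockouts P1896 and P1907 lay above the lowest control, P1898, so the groups overlapped. The change was -0.23, SE 0.0571, adjusted p = 0.0134, and the call was lost under quantile normalization. The tables count a whole gene, so tags from the deleted exons were not separated from the rest. In RiboTag mRNA the 4 libraries labelled knockout held 273, 248, 186 and 209 CPM (counts scaled to library size) of Bcl6 and the 4 labelled control 132, 314, 125 and 262, with overlap (change 0.14, adjusted p = 0.84 in edgeR). Whole-gene Bcl6 counts thus do not check the RiboTag labels, and directions given for that RNA below rest on the labels. Of the 20 tested genes of BCL6 and its corepressors, Hdac5 (0.16) rose and 5 fell. Among those that fell, beside Bcl6, were Zbtb16 (-0.41), Ncor1 (-0.15) and Bcorl1 (-0.12), that is the related repressor PLZF, a large nuclear corepressor and a BCOR-like protein. The call of Ncor1 was lost under quantile normalization as well. The Zbtb16 libraries stood at 10.07, 10.03, 10.09, 9.91 and 9.86 against 10.22, 10.54, 10.44 and 10.40, without overlap.

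In all, 830 genes (6.04%) were raised and 1266 (9.22%) were lowered at a Benjamini-Hochberg adjusted p below 0.05 in limma. Counts for the gene lists below are to be read beside these shares. Most changes were small. Beyond 0.25 on the log2 scale there were 105 raised and 204 lowered genes, beyond 0.5 there were 25 and 23, and beyond 1 there were 3, all raised. The groups did not overlap for 15.2% of the genes tested. The 15 most raised and 15 most lowered genes named below were picked among called genes without overlap, so lack of overlap is no result for them. Of the calls 39.6% were rises. This share was 48.3% (911 raised, 976 lowered) after quantile normalization and 28.2% (617 and 1572) when each library was centred on its median, so the balance of rises and falls depends on the scaling. Noncoding RNA genes made up 76 of the raised genes (12.5% of 609 tested), against 5.75% of the 13045 protein-coding genes, and 31 of the lowered ones (5.09% against 9.45%).

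Several transcripts of the acetylcholine receptor and of denervated or immature muscle rose. Chrna9, a nicotinic receptor subunit, stood at 9.0, 8.94, 8.91, 8.74 and 8.93 in knockouts and 7.26, 7.37, 7.13 and 7.24 in controls. Every knockout lay more than a unit above every control, and the change of 1.65 (SE 0.052, adjusted p = 1.22e-09) was the largest of all genes tested on this transformed scale. Folds in the authors' deposited table rank otherwise, with a log2 fold of 1.32 for Chrna9 and 2.41 for Cited1. Chrna1, the alpha subunit of the muscle receptor, stood at 9.28, 9.31, 9.52, 9.20 and 9.32 against 8.72, 8.76, 8.61 and 8.67, again without overlap (change 0.63, SE 0.0532, adjusted p = 6.71e-06). Sln, which encodes sarcolipin, an inhibitor of the calcium pump, stood at 8.14, 8.15, 8.03, 7.83 and 8.22 against 7.24, 7.36, 7.16 and 7.15 (change 0.85, SE 0.0679, adjusted p = 4.59e-06). Of 32 tested genes of the receptor, the synapse and denervation, 8 rose and 2 fell, with a median change of 0.0348 beside 0.00228 over all genes tested. The other members that rose were Myh8 (0.40), Gadd45a (0.36), Rapsn (0.12), Chrnd (0.11) and Chrnb1 (0.10), among them perinatal myosin, the receptor-clustering protein rapsyn and the delta and beta receptor subunits. Those that fell were Dach2 (-0.17) and Erbb3 (-0.08). Of 15 alternative settings of scaling, filter, model or libraries, the call of Chrnd was lost in 11, that of Chrnb1 in 9 and that of Erbb3 in 7. The adult epsilon subunit gene Chrne did not pass (0.04, adjusted p = 0.379).

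Several genes expressed from one parental allele rose. Of 20 tested imprinted genes of the list 9 rose and none fell, with a median change of 0.0633. The largest rises were in the noncoding RNAs of the Dlk1-Dio3 region of chromosome 12 (mm10), Meg3 (chr12:109545398-109568650), Rian (chr12:109603945-109661711) and Mirg (chr12:109734981-109749457), which lie next to one another on the same strand. Rian stood at 10.18, 10.21, 10.28, 10.13 and 10.12 against 9.16, 9.19, 8.94 and 9.02 (change 1.11, SE 0.0492, adjusted p = 1.32e-08). Meg3 stood at 10.15, 10.16, 10.15, 10.06 and 10.08 against 9.36, 9.35, 9.19 and 9.29 (change 0.82, SE 0.0362, adjusted p = 1.32e-08). Mirg rose by 0.59, and Rtl1, on the other strand, by 0.06. Rtl1 lay low on this scale, at 4.03 in oil-treated library P1897. In RiboTag mRNA Rtl1 stood at 23.9, 10.6, 21.4 and 28.9 CPM in knockouts and 1.87, 0.30, 1.55 and 0.84 in controls. Per the header, tags on both strands were counted, so reads from overlapping or antisense genes of this region cannot be told apart. Dlk1, the protein-coding gene at the region's other end, did not pass (0.04, adjusted p = 0.263). Outside the region Peg3 stood at 9.58, 9.55, 9.62, 9.31 and 9.49 against 9.0, 8.90, 8.89 and 8.82 (change 0.61, SE 0.0549, adjusted p = 1.17e-05), and H19 (0.35), Cdkn1c (0.25), Snrpn (0.17) and Grb10 (0.13) rose less. Peg10, another paternally expressed gene, stood at 7.72, 7.89, 7.71, 7.86 and 7.71 against 7.14, 7.34, 7.15 and 7.20 (change 0.57). Peg10 is outside the list, as is Igf2r, which is expressed from the maternal allele and fell (-0.22). In none of Rian, Meg3, Peg3 and Peg10 did the groups overlap, though Rian and Meg3 were picked among genes without overlap.

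Several regulators of transcription and of protein turnover were among the largest rises. Usp46, a deubiquitinase, stood at 9.72, 9.70, 9.85, 9.83 and 9.82 against 8.84, 8.96, 8.94 and 8.84 (change 0.89, SE 0.0374, adjusted p = 1.08e-08). Wnt4, a secreted Wnt ligand, stood at 9.98, 9.90, 9.97, 9.99 and 10.08 against 9.04, 9.24, 9.06 and 8.97 (change 0.91, SE 0.0471, adjusted p = 5.49e-08). The AT-rich interaction domain genes Arid3b (0.78) and Arid5a (0.64), the coregulator gene Cited1 (0.71) and the estrogen-related receptor gene Esrrb (0.63) rose as well. Arid5a was uneven among controls, at 8.10, 8.57, 8.0 and 8.15, with P1899 above the others and below every knockout (8.76, 8.90, 8.82, 8.85 and 8.89). Atp1b4, related to the beta subunits of the sodium pump, rose by 0.86, Hs6st2, a heparan sulfate sulfotransferase, by 0.75, and the noncoding Gm20597 by 0.65. In Wnt signalling, Fzd7 (0.34), Lrp5 (0.14) and Tcf7l2 (0.08) rose beside Wnt4 and Fzd4 (-0.28), Lgr4 (-0.18), Lrp6 (-0.15) and Wnt9a (-0.13) fell, 4 and 4 of 38. That is 10.5% each way, beside 6.04% raised and 9.22% lowered over all genes.

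Esr1, the estrogen receptor gene, had the second largest rise on this scale, and it did not pass between groups that both carry the Cre transgene. It stood at 11.01, 11.02, 11.08, 11.11 and 11.11 in the knockouts and 9.55, 9.78, 9.81 and 9.77 in the Cre-negative libraries (change 1.34, SE 0.0467, adjusted p = 2.3e-09). In the separately transformed table with oil-treated muscle, which carries AEC-Esr Cre, the knockouts stood at 11.20, 11.21, 11.27, 11.30 and 11.30 and the 4 oil libraries at 11.16, 11.27, 11.21 and 11.32, a change of 0.02 (adjusted p = 0.786). In RiboTag mRNA, where both groups carry AEC-Esr Cre, it was -0.01 (adjusted p = 0.979). The part of the transgene in the Esr1 value was not tested. Its coregulator gene Nrip1 rose (0.30) and the coactivators Ncoa1 (-0.23) and Ncoa2 (-0.11) fell.

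**Figure D1:**
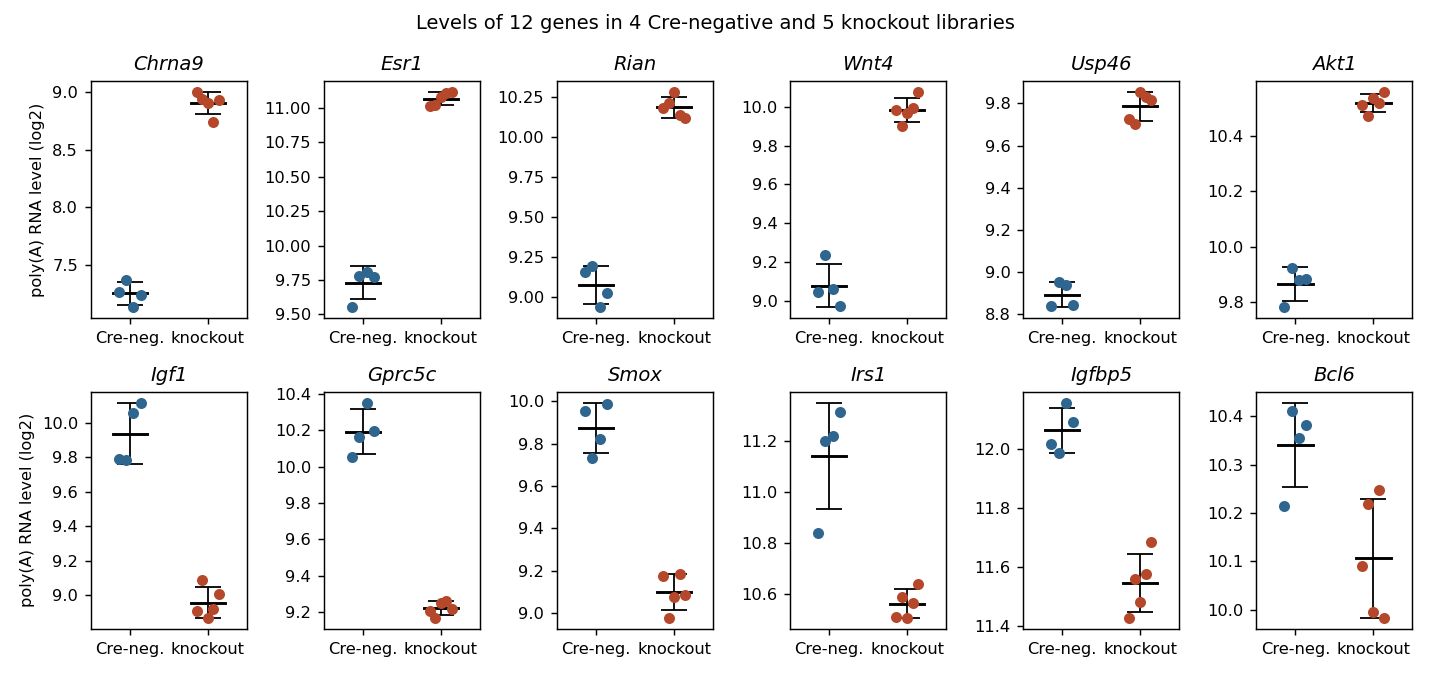
Poly(A) RNA levels (log2, each panel with its own axis that does not start at 0) of 12 genes in 4 Cre-negative (blue) and 5 knockout (red) libraries, with 1 point per library, the mean as a thick line and 1 SD as bars. The groups are apart in all panels except Bcl6, where knockouts P1896 and P1907 lie above Cre-negative P1898. Genes other than Igfbp5 and Bcl6 were picked among genes without overlap.

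In growth signalling the ligand gene Igf1 and the adaptor gene Irs1 fell, while the kinase gene Akt1 rose. Igf1, whose product drives muscle growth through the kinase AKT, stood at 8.91, 9.09, 8.87, 8.92 and 9.01 in knockouts and 9.79, 9.78, 10.06 and 10.12 in controls (change -0.98, SE 0.0682, adjusted p = 1.12e-06). Igfbp5, a binding protein, stood at 11.43, 11.56, 11.48, 11.58 and 11.69 against 12.01, 11.99, 12.16 and 12.09 (change -0.52, SE 0.0483, adjusted p = 1.51e-05). Stc2, which encodes an inhibitor of the protease that releases IGF1 from binding proteins, stood at 7.19, 7.05, 7.38, 7.27 and 7.09 against 6.76, 6.83, 6.60 and 6.58 (change 0.50, SE 0.0664, adjusted p = 0.000214). Of 17 tested genes of IGF ligands, receptors and binding proteins 4 rose, which were Stc2, Igfals (0.33), Igf2 (0.25) and Igf1r (0.18), and 3 fell, which were Igf1, Igfbp5 and Igf2r (-0.22). Downstream, the adaptor gene Irs1 stood at 10.51, 10.59, 10.51, 10.57 and 10.64 against 10.84, 11.20, 11.22 and 11.31 (change -0.58, SE 0.0726, adjusted p = 0.000142), with control P1898 far below the other controls but above every knockout. The kinase gene Akt1 stood at 10.51, 10.47, 10.54, 10.52 and 10.56 against 9.78, 9.92, 9.88 and 9.88 (change 0.65, SE 0.0301, adjusted p = 1.69e-08). Of 37 genes of the PI3K, AKT and mTORC1 pathway 4 rose (10.8%) and 8 fell (21.6%), beside 6.04% and 9.22% over all genes. For the IGF genes above these shares were 23.5% and 17.6%. The catalytic and regulatory PI3K subunits Pik3ca (0.17) and Pik3r2 (0.12) rose, Pik3cb (-0.08) and Pik3r3 (-0.12) fell, and Akt2, the other main muscle isoform, did not pass (-0.04, adjusted p = 0.365, with a change of 0.02 after quantile normalization).

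Growth hormone signalling genes were more often lower than higher. Of 28 tested 2 rose, Socs2 and Prlr (0.04), and 10 fell, with a median change of -0.0354. These are 7.14% and 35.7%, beside 6.04% and 9.22% over all genes. Quantile normalization left 4 raised and 6 lowered. Falls ran from the receptor Ghr (-0.13) through the kinases Jak2 (-0.27) and Jak1 (-0.11) and the cytokine receptor Lifr (-0.22) to Stat6 (-0.10) and the phosphatase Ptpn11 (-0.17). The calls of Ghr, Jak1 and Stat6 were lost after quantile normalization, and that of Stat6 in 9 of the 15 alternative settings. The feedback inhibitors Socs2 and Cish, both with strong BCL6 promoter peaks, moved apart. Socs2 stood at 8.85, 8.88, 9.12, 8.88 and 8.92 against 8.36, 8.74, 8.68 and 8.48 (change 0.36, SE 0.0721, adjusted p = 0.00388) and Cish at 9.26, 8.83, 9.16, 8.96 and 9.14 against 9.26, 9.69, 9.49 and 9.52 (change -0.42, SE 0.0879, adjusted p = 0.00573). Socs2 did not overlap between the groups, whereas for Cish control P1898 lay at the level of the highest knockout.

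Energy sensing genes split in direction, and polyamine genes that passed were lower. Of 16 tested brakes of mTORC1 and energy stress sensors 3 rose and 4 fell, with a median change of 0.0086. The 4 of this list that fell, Prkaa2 (-0.31), Prkag3 (-0.28), Prkab2 (-0.27) and Prkag2 (-0.20), encode subunits of the AMP-activated kinase. Those that rose were another subunit gene, Prkab1 (0.11), the autophagy kinase gene Ulk1 (0.12) and the sestrin gene Sesn1 (0.25). Prkaa2, the catalytic subunit, stood at 11.09, 11.07, 11.04, 11.02 and 11.09 against 11.35, 11.36, 11.40 and 11.39, 2 tight groups without overlap. Of 14 tested polyamine genes 5 fell (35.7%) and none rose, as after quantile normalization and after median centring. Smox, spermine oxidase, stood at 9.17, 8.98, 9.08, 9.19 and 9.09 against 9.95, 9.73, 9.82 and 9.99 (change -0.77, SE 0.0534, adjusted p = 1.07e-06). The others were Azin1 (-0.37), Amd1 (-0.35), Odc1 (-0.29) and Aldh18a1 (-0.25), which include the antizyme inhibitor and the decarboxylases that make putrescine and spermidine's precursor.

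On the same scale, the largest falls after Igf1 were those of Gprc5c, Ppp1r12b, Kcng4 and Tnfaip2. Gprc5c, an orphan receptor of the retinoic acid-inducible family, stood at 9.21, 9.17, 9.25, 9.26 and 9.22 against 10.06, 10.16, 10.35 and 10.19 (change -0.97, SE 0.0463, adjusted p = 2.3e-08). Tnfaip2 stood at 9.37, 9.33, 9.25, 9.33 and 9.31 against 10.16, 10.01, 10.14 and 10.09 (change -0.78, SE 0.033, adjusted p = 1.08e-08). It lies at chr12:111442661-111455018, between the Dlk1-Dio3 region and Akt1 (chr12:112653821-112674276). Kcng4, a modifier subunit of potassium channels, was more variable, at 8.99, 9.02, 8.79, 8.59 and 9.04 against 9.70, 9.46, 9.63 and 9.94 (change -0.79, SE 0.0974, adjusted p = 0.00012). The calcineurin regulator gene Rcan1 (-0.60), the phosphatase gene Dupd1 (-0.63), the small GTPase gene Rasd2 (-0.60), the potassium channel gene Kcnf1 (-0.62), the T cell costimulator gene Cd28 (-0.63) and the armadillo repeat gene Armcx4 (-0.75) fell too. Lack of overlap was a condition for picking these genes. Ikzf4 (-0.61) rested on 3 controls, since P1898 stood at 6.12 against 6.66, 6.77 and 7.03 in the others and 6.02 to 6.05 in the knockouts.

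Ppp1r12b and Pdpr fell here but not in RiboTag mRNA. Ppp1r12b stood at 7.78, 7.67, 7.67, 7.47 and 7.65 against 8.42, 8.27, 8.66 and 8.61 (change -0.84, SE 0.0743, adjusted p = 1.02e-05), and its RiboTag change was 0.03 (adjusted p = 0.964). Pdpr, a regulatory subunit of pyruvate dehydrogenase phosphatase, changed by -0.70 here (adjusted p = 0.000125) and by 0.05 there (adjusted p = 0.924). Against oil-treated muscle they changed by -1.39 and -0.96. The difference between the poly(A) and RiboTag comparisons was not tested. Among the myosin light chain kinases and phosphatase genes, 3 of 19 rose (15.8%) and 5 fell (26.3%), including the muscle kinase gene Mylk4 (-0.38). Over all genes 6.04% rose and 9.22% fell.

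Genes that restrain growth split in direction. Mstn, which encodes myostatin, stood at 9.86, 9.84, 9.96, 9.93 and 9.88 against 9.38, 9.46, 9.38 and 9.40 (change 0.49, SE 0.0297, adjusted p = 3.04e-07). Its receptor genes split, with Acvr2b (-0.26), Acvr1b (-0.22) and Tgfbr1 (-0.13) lower and Acvr2a (0.11) higher, and the list held 4 rises and 5 falls of 25. Eif4ebp1, a repressor of cap-dependent translation, stood at 8.89, 8.80, 8.93, 8.87 and 8.89 against 8.46, 8.58, 8.45 and 8.40 (change 0.40, SE 0.0361, adjusted p = 1.16e-05). The scaffold genes Eif4g3 (-0.16) and Eif4g1 (-0.10) fell and the kinase genes Mknk2 (0.11) and Mknk1 (0.08) rose, out of 21 genes of this complex. Eif4g1 changed by 0.0102 after quantile normalization. The ligase gene Fbxo32 rose by 0.15 (adjusted p = 0.0259) and Trim63 did not pass (-0.10, adjusted p = 0.0849). Of the 22 FOXO and atrophy genes 2 rose and 2 fell, 9.09% each way beside 6.04% raised and 9.22% lowered over all genes.

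Few genes of the core machinery for making and degrading protein passed. Of 80 cytosolic ribosomal protein genes only Rpl27a (0.09) passed, with a median change of 0.0201. Of 37 initiation and elongation factor genes only Eef1b2 (0.09) passed (median -0.00708). Of 42 proteasome genes Psmd5 (0.09) rose and the activator gene Psme4 (-0.24) fell. Of 21 clock genes only Tef (-0.15) passed, and of 21 genes of branched-chain amino acid breakdown only Bckdhb (0.09). These shares lie below the 6.04% raised and 9.22% lowered over all genes. Quantile normalization called 3, 3 and 3 rises among the initiation factors, ribosomal proteins and proteasome subunits. That is 3 of 37, 3 of 80 and 3 of 42, where that scaling raised 911 of all 13732 genes, a lower share than in the first and the last of these lists. A gene that did not pass is not thereby shown to be unchanged.

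**Figure D2:**
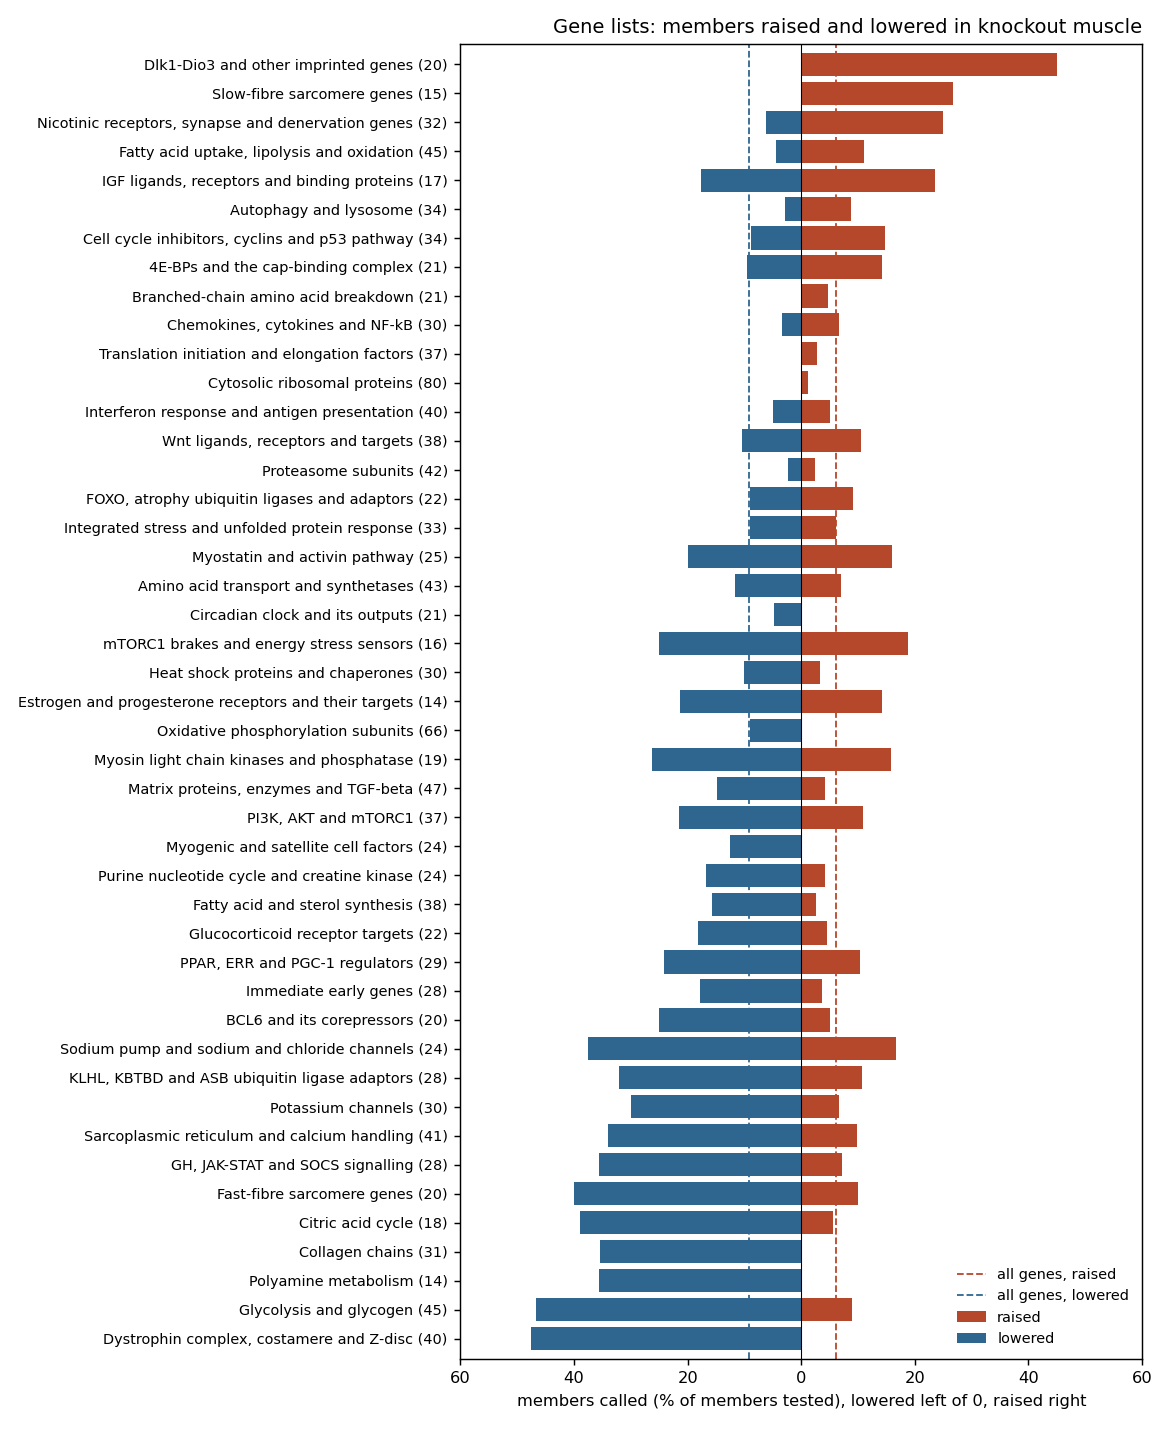
Share of tested members raised (red, right of 0) and lowered (blue, left of 0) in knockout muscle for each pathway list with at least 10 members tested, whose number is in brackets, beside the share over all genes (dashed lines, 6.04% and 9.22%). Imprinted genes have the largest share of rises without a fall, and the dystrophin, costamere and Z-disc list the largest share of falls.

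Fibre-type and calcium genes shifted by small amounts, and the count of falls among the abundant fast genes depended on scaling. Of 15 slow-fibre sarcomere genes 4 rose, Myl6b (0.33), Myl2 (0.28), Myoz2 (0.23) and Myl3 (0.11), and none fell, and quantile normalization gave 6 raised and 0 lowered. The slow myosin gene Myh7 did not pass (0.22, adjusted p = 0.063), with knockouts at 11.75, 11.91, 11.74, 11.64 and 12 and controls at 11.53, 11.78, 11.61 and 11.43. Of 20 fast-fibre genes 8 fell, among them Myl1 (-0.24), Myoz3 (-0.21) and Myh4 (-0.21), and 2 rose, Smtnl1 (0.30) and Myh2 (0.18). Quantile normalization turned this to 5 raised and 2 lowered, and the call for Myh4 was lost. Of 10 muscle fibre markers 6 fell, with 2 raised and 1 lowered after quantile normalization. For calcium handling by the sarcoplasmic reticulum 14 of 41 fell and 4 rose, and 8 raised and 9 lowered after quantile normalization. The slow calsequestrin gene Casq2 stood at 10.45, 10.52, 10.49, 10.47 and 10.47 against 10.08, 10.17, 10.01 and 9.96 (change 0.42, SE 0.0363, adjusted p = 8.05e-06), and the fast one, Casq1, fell by 0.21. The release channel gene Ryr1 (-0.15), its partners Jph2 (-0.21) and Stac3 (-0.16) and the sarcolemmal sodium channel gene Scn4a (-0.30) were lower. Ano5, a muscle membrane protein of the anoctamin family, stood at 10.71, 10.66, 10.72, 10.63 and 10.71 against 11.17, 11.19, 11.23 and 11.19 (change -0.51, SE 0.0256, adjusted p = 3.97e-08).

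Structural genes of the costamere and collagen genes were often lower. Of 40 tested genes of the dystrophin complex, costamere and Z-disc 19 fell and none rose (median change -0.12), and quantile normalization gave 2 raised and 10 lowered. They include Flnc (-0.31), Neb (-0.28), Ttn (-0.22), Dmd (-0.21) and Dysf (-0.22), that is filamin C, nebulin, titin, dystrophin and dysferlin. Neb stood at 13.18, 13.10, 13.15, 13.10 and 13.11 against 13.42, 13.43, 13.39 and 13.40, without overlap, and its call was lost after quantile normalization, as was that of Ttn. Of 31 collagen chains 11 fell and none rose (median -0.14), among them Col11a1 (-0.36), Col6a3 (-0.33), Col5a1 (-0.29) and Col1a1 (-0.20), and quantile normalization left 0 raised and 6 lowered. In RiboTag mRNA the same 31 collagen genes had a median change of -0.0212, with none called. The median exon length of the collagen list was 6398 bases and of the costamere list 3322, against 2926 over all genes tested.

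Length and level moved with the falls across the whole table. The genes were divided into 10 classes of equal size by exon length and, separately, by mean level. The share of lowered genes ran from 2.4% in the shortest to 27.1% in the longest class, and from 2.62% in the least to 34.6% in the most abundant class. Raised genes made up 6.55% and 3.57% by length and 3.93% and 4.44% by level. Quantile normalization brought the most abundant class to 16.5% lowered and 17.1% raised, and left 20.4% lowered in the longest class. The median of the longest class minus that of the shortest, after centring each gene, was -0.0113, -0.00225, -0.0287, -0.051 and -0.0384 in the knockout libraries and 0.0167, 0.0244, 0.0748 and 0.0153 in the Cre-negative ones, and the groups did not overlap. In RiboTag mRNA the median change of the longest class was -0.00804 and of the most abundant class -0.108. Acta1 had 5.84 tags per exon base where the median gene had 0.0876, and the header of the poly(A) table names no limit on tags per position. Median exon length was 4340.5 bases in the growth hormone signalling list and 5070 in the PI3K, AKT and mTORC1 list, against 2926 over all genes. The part of length, level and scaling in the falls of these lists, and of the costamere, collagen, fast-fibre and glycolysis lists, was not tested beyond these values.

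**Figure D3:**
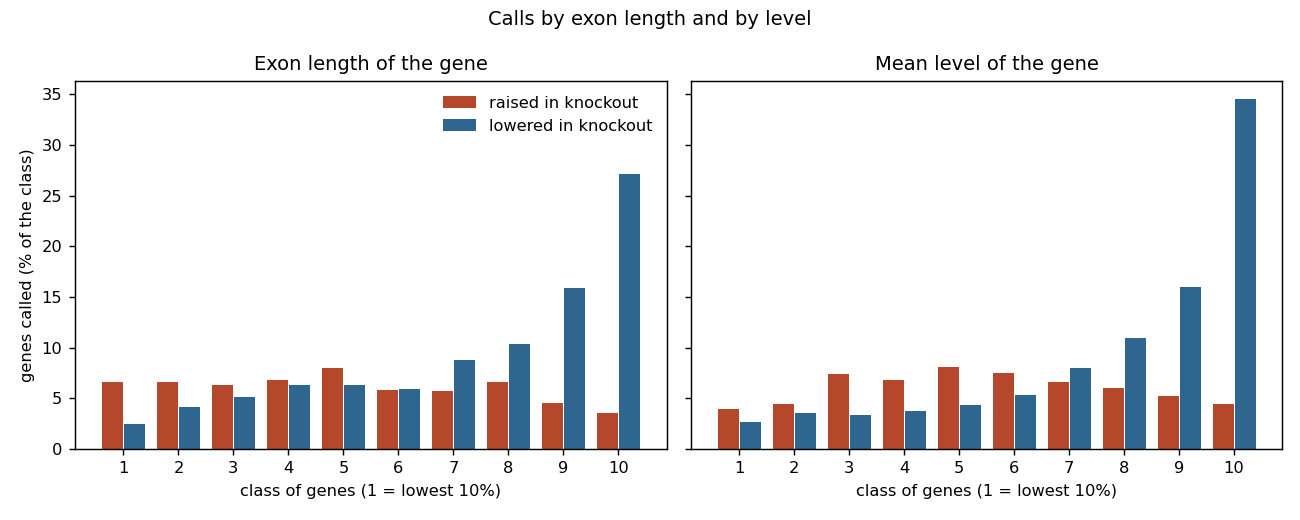
Percent of genes raised (red) and lowered (blue) in knockout muscle for 10 classes of equal size of the 13732 tested genes, ordered by exon length (left) and by mean level (right). Lowered genes reach 27.1% in the longest and 34.6% in the most abundant class, and raised genes stay between 3.57% and 8.08% in all 10 classes of both kinds.

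Glycolysis genes were often lower, and single genes of oxidative metabolism rose. Among 45 tested genes of glycolysis and glycogen, 21 were lower and 4 higher (median -0.086), and 6 raised and 13 lowered after quantile normalization. Falls included the glycogen phosphorylase kinase subunit Phka1 (-0.34) and the glycolytic enzymes Ldha (-0.23), Pkm (-0.21) and Pfkm (-0.15). Fbp2, the muscle fructose bisphosphatase, which works against glycolysis, stood at 9.27, 9.18, 9.32, 9.29 and 9.19 against 8.88, 8.89, 8.85 and 8.92 (change 0.36, SE 0.0317, adjusted p = 9.55e-06), and Pfkfb4 (0.29), Slc2a1 (0.17) and Pdk1 (0.10) rose as well. In the citric acid cycle 7 of 18 fell, led by Pcx (-0.21) and Idh3a (-0.15), and Idh2 rose. Idh2, the NADP-dependent isocitrate dehydrogenase, stood at 10.72, 10.69, 10.71, 10.68 and 10.75 against 10.25, 10.30, 10.20 and 10.27 (change 0.46, SE 0.0253, adjusted p = 1e-07). Quantile normalization gave 2 raised and 2 lowered for this list. The mitochondrial acetate enzyme Acss1 stood at 10.19, 10.24, 10.26, 10.17 and 10.21 against 9.62, 9.75, 9.61 and 9.65 (change 0.55, SE 0.0305, adjusted p = 9.85e-08). Of 45 genes of fatty acid uptake and oxidation 5 rose, Acss1, Slc27a1 (0.21), Acot2 (0.21), Eci2 (0.12) and Acot1 (0.04), and 2 fell. The median change of this list was 0.00341, beside 0.00228 over all genes. Of 38 genes of fatty acid and sterol synthesis 1 rose and 6 fell (median -0.0267), with Scd2 (-0.33), Lpin1 (-0.27) and Fasn (-0.26) among the falls. Of 66 oxidative phosphorylation subunits 6 fell, a share of 9.09% near the 9.22% over all genes, and none rose. Quantile normalization gave 1 raised and 1 lowered.

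Transport, ubiquitin and stress genes changed one by one. The leucine-preferring transporter gene Slc43a2 stood at 9.74, 9.86, 9.71, 9.65 and 9.75 against 9.20, 9.33, 9.46 and 9.24 (change 0.43, SE 0.051, adjusted p = 8.88e-05), and the glutamine transporter gene Slc38a2 (-0.32) fell. Of 28 ubiquitin ligase adaptors 3 rose, Klhl38 (0.41), Asb2 (0.13) and Asb11 (0.12), and 9 fell, led by Asb15 (-0.34) and Asb4 (-0.24). The death receptor gene Eda2r (0.45) and the apoptosis gene Bcl2l11 (0.22) rose, and Cdkn1a did not pass (0.11, adjusted p = 0.213). Lysosomal Ctsd (0.22) and its regulator Tfeb (0.12) rose among 34 autophagy and lysosome genes, of which 3 rose and 1 fell. The proto-oncogene Myc stood at 7.37, 7.38, 7.48, 7.46 and 7.48 against 7.06, 7.06, 6.89 and 6.96 (change 0.44, SE 0.0388, adjusted p = 9.85e-06). It was the only rise among 28 immediate early genes, where Nr4a1 (-0.46), Fos (-0.36), Dusp1 (-0.28), Fosl2 (-0.16) and Arc (-0.13) fell. Of 22 tested targets of the glucocorticoid receptor 4 fell, Fkbp5 (-0.35) and Tsc22d3 (-0.21) with Zbtb16 and Dusp1, and 1 rose, Mt1 (0.11). The median change of the 22 was 0.0127, and 12 lay above 0. The receptor gene itself, Nr3c1, did not pass (-0.10, adjusted p = 0.102). Shares raised and lowered were 4.55% and 18.2% for the glucocorticoid receptor targets and 3.57% and 17.9% for the immediate early genes. They were 8.82% and 2.94% for autophagy and lysosome genes and 10.7% and 32.1% for the ligase adaptors. Over all genes they were 6.04% and 9.22%.

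Markers of other cells mostly did not pass. Of 93 tested markers of 11 cell classes other than muscle fibres, 2 rose, including Spry1 (0.12), and 5 fell, Abcc9 (-0.22), Tnc (-0.21), Itga7 (-0.14), Cd82 (-0.14) and Flt1 (-0.13). Their median change was -0.00816. Over all genes tested 6.04% were raised and 9.22% lowered, so most genes of any kind did not pass. None of the tested markers of macrophages, fibroblast-like progenitors, adipocytes or red cells passed. Of 10 T and B cell markers 1 was expressed above the filter, and Cd3e, Cd4 and Cd8a were among those below it. Summed marker levels overlapped between the groups for 9 of the 12 classes. They did not overlap for muscle fibre markers (15.91 to 16.02 in knockouts and 16.03 to 16.13 in Cre-negative muscle), for satellite cell markers (11.78 to 11.80 in knockouts and 11.82 to 11.87 in Cre-negative muscle) and for smooth muscle and pericyte markers (13.30 to 13.35 in knockouts and 13.37 to 13.42 in Cre-negative muscle). Such sums weigh abundant members most. In oil-treated library P1897 Itga7 stood at 10.40 and Pax7 at 6.53, and Abcc9 at 11.55 and Myh11 at 10.12. The called falls were Itga7 and Cd82 among satellite cell markers and Abcc9 among smooth muscle and pericyte markers, whereas Pax7 and Myh11 did not pass. The share of single members in these sums was not tested. In bulk tissue, fewer cells of a type and less RNA per cell cannot be told apart. The part of these markers in the other results was not tested.

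Nnt, a mitochondrial transhydrogenase gene, was split within each group and did not pass (0.38, adjusted p = 0.149). Knockouts stood at 9.99, 10.54, 10.08, 9.93 and 10.55 and Cre-negative libraries at 9.5, 10.17, 9.52 and 10.16. In each group the libraries fell on either side of a gap, P1896 and P1911 above the other knockouts and P1899 and P1909 above the other controls. On each side of the gap the knockouts lay above the controls. In RiboTag mRNA Nnt stood at 137, 156, 132 and 181 CPM in knockouts and 91, 62, 83 and 64 in controls, without overlap. The 4 oil libraries were split as well, at 10.02, 9.26, 9.24 and 9.96 in their own table.

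In RiboTag mRNA, from other mice with their own controls, most called genes lay on the same side of 0. Of 824 raised genes measured there, 738 were above 0 (89.6%), where 52.1% of all 13575 genes in both tables were. Of 1258 lowered genes, 1097 were below 0 (87.2%, against 47.9%). The shares over all genes were not matched for level. In the most abundant of the 10 classes by level, 34.6% were lowered here and the median RiboTag change was -0.108. In the RiboTag comparison edgeR called 1.95% of 14476 genes raised and 2.25% lowered (4.21% either way). Of the genes called here 175 of the raised were raised and 222 of the lowered were lowered there. Among the named genes, large changes there were those of Chrna9 (5.73), Cited1 (5.04), Sln (4.03), Rian (3.23) and Usp46 (2.23) upward and of Cd28 (-2.90), Smox (-2.76), Kcng4 (-2.23) and Dupd1 (-1.90) downward. Igf1 (-0.65), Akt1 (1.49) and Irs1 (-0.52) kept their sign and passed. The RiboTag values are counts with at most 5 tags per position and the poly(A) values a transform, so the sizes are not on one scale.

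Of 403 genes called in both comparisons, 6 had opposite signs, named here after their values were seen. The immediate early genes Fos (-0.36 here, 2.45 in RiboTag mRNA) and Dusp1 (-0.28 and 0.45), the matrix gene Tnc (-0.21 and 0.71) and the potassium channel gene Kcnc4 (-0.16 and 0.46) fell here and rose there. Neto2 (0.07 and -1.17) and Xrcc5 (0.11 and -0.42) did the reverse. Fos stood at 7.71, 7.42, 7.42, 7.62 and 7.64 in knockouts and 7.88, 8.11, 7.83 and 7.87 in controls, without overlap. Among the 28 immediate early genes 8 were raised and none lowered in RiboTag mRNA.

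**Figure D4:**
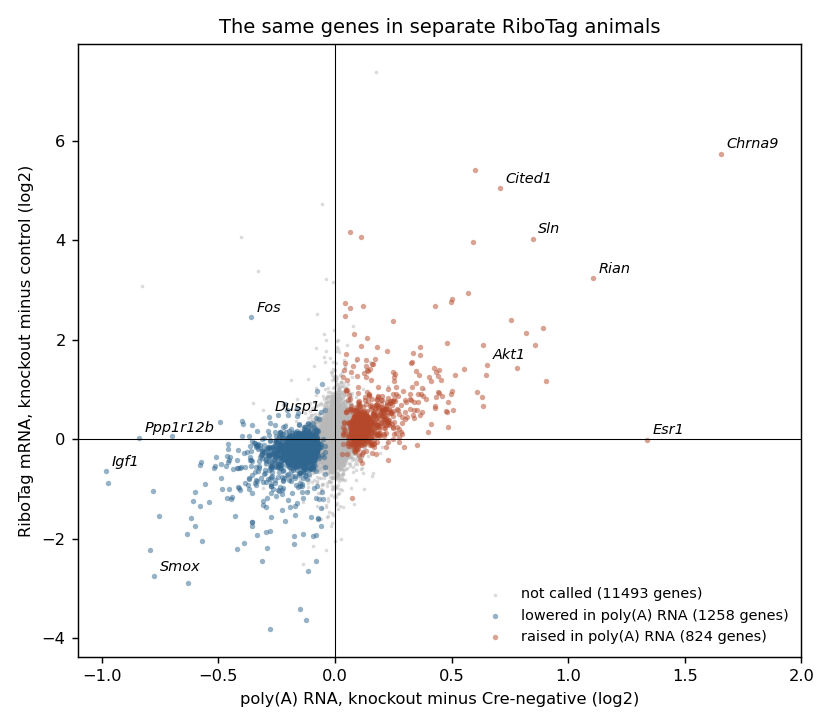
Change in RiboTag mRNA (knockout minus control, log2, vertical) against change in poly(A) RNA (knockout minus Cre-negative, log2, horizontal), 1 point per gene, with raised genes in red, lowered in blue and others in grey. Most raised genes lie above and most lowered genes below 0, while Esr1 and Ppp1r12b lie near 0 on the vertical axis and Fos lies on the opposite side.

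The knockouts were also compared with oil-treated Cre-positive muscle, which shares these knockout libraries, so the values are only set side by side. There 9.89% of 13754 genes were raised and 13.5% lowered. Chrna9 changed by 1.95, Rian by 1.33, Usp46 by 1.14, Wnt4 by 0.81 and Akt1 by 0.65. Igf1 changed by -1.07, Gprc5c by -0.97, Smox by -1.32 and Irs1 by -0.58. Cish, lower here, changed by -0.08 there, where oil library P1905 stood at 8.14 and P1897, P1904 and P1910 at 9.29, 9.21 and 9.66. Pcx, lower here, changed by 0.22 there. In nascent RNA of wild-type muscle after the BCL6 inhibitor FX1, where 10.5% of 15683 genes were raised and 10.1% lowered, Igf1 changed by -1.24 (adjusted p = 0.00609), Irs1 by -1.18 (adjusted p = 0.00189) and Eif4ebp1 by 1.09 (adjusted p = 0.0074). Wnt4, raised in the knockout, changed by -0.79 (adjusted p = 0.0154) and Chrna1 by -0.55 (adjusted p = 0.00919). These are other mice and another assay, and the difference between the comparisons was not tested.

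BCL6 binding, known from 1 library of wild-type quadriceps with 10925 peaks, was set beside the RNA calls. Of 1503 tested genes with a peak within 1000 bp of the start, 10.5% were raised and 13.2% lowered, and of 8960 genes that were nearest to no peak 4.48% and 6.02%. Genes with a peak were also more abundant, with a median level of 8.60 against 7.65. Rises were more frequent where the authors' peak score was higher. Among the 100 genes with the highest-scoring promoter peaks 27 were raised and 6 lowered, with a median change of 0.0494. Among the 200 highest 24.5% were raised and 7.0% lowered. The strongest peak of all lies at the Socs2 promoter (score 1204.2), and those of Cish (715.4) and Bcl6 (592.9) are also among the high scores.

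H3K27ac at these peaks was higher in the knockout near raised genes. Over all 9062 windows tested in limma 16.8% were raised and 1.43% lowered, with a median change of 0.137. Within 1000 bp of starts, the median was 0.266 in 165 windows of raised genes, of which 62 were raised and 0 lowered. In 202 windows of lowered genes the median was 0.0565, with 8 raised and 4 lowered, and in 1183 windows of genes not called it was 0.0802, with 57 raised and 1 lowered. Farther than 1000 bp, 49.0% of the 604 windows of raised genes were raised, against 9.08% of the 1266 of lowered genes and 16.9% of the 3909 of genes not called. By edgeR on reads recovered from the signal 1008 windows were raised and 382 lowered. Without knockout P1900 or P1907 limma called 958 and 984 windows raised, and without these or control P1899 it called 83, 69 and 57 lowered. Mice of the 2 measurements carry the same numbers, so RNA and H3K27ac are not independent samples.

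Single windows show the size of these differences in the authors' scaled signal, given for knockouts P1896, P1900 and P1907 and then for Cre-negative P1898, P1899 and P1906. In an intron of Usp46 (chr5:74020152-74021152, peak score 657.8) the signal was 39, 57.2 and 41 in knockouts and 0.67, 0.91 and 0.95 in controls (log2 change 4.65, adjusted p = 5.51e-07). There the controls had almost no signal. Near Chrna9, 1074 bp before the start (chr5:65965550-65966550), it was 133, 180 and 133 against 30, 27.6 and 20 (2.48, adjusted p = 1.08e-06). In an intron of Akt1 (chr12:112670636-112671636) it was 99.1, 102 and 133 against 27.3, 24.4 and 20 (2.17, adjusted p = 2.14e-06), and in one of Arid3b (chr9:57831031-57832031) 138, 142 and 122 against 22.7, 28.5 and 19.6 (2.47, adjusted p = 9.08e-07). All 4 sites were apart between the groups, and their genes rose. At the Socs2 promoter (chr10:95416406-95417406) it was 322, 392 and 410 against 200, 145 and 140 (1.22, adjusted p = 2.68e-05), and at that of Stc2 (chr11:31369593-31370593) 132, 143 and 127 against 42, 59.3 and 42.5 (1.48, adjusted p = 2.01e-05). The Fbp2 promoter (chr13:62858026-62859026) gave 174, 175 and 184 against 95.3, 117 and 82 (0.86, adjusted p = 0.000448). The promoter of Nnt, whose RNA was split, gave 267, 284 and 259 against 139, 168 and 130 (0.89, adjusted p = 7.72e-05).

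Lowered genes differed among themselves in this mark. In an intron of Igf1, 1889 bp after the start (chr10:87862500-87863500), the signal was 27.7, 36.5 and 36 in knockouts and 124, 55.2 and 49.1 in controls (-1.05, adjusted p = 0.0169), with control P1898 far above the other controls and no overlap. In Smox, 2167 bp after the start (chr2:131493529-131494529), it was 28.3, 39.2 and 32.5 against 81.3, 52 and 45.8 (-0.79, adjusted p = 0.0206). Near Tnc (chr4:64046930-64047930) it was higher in the knockout, 27.7, 30.8 and 33.5 against 7.33, 7.69 and 8.58 (1.84, adjusted p = 7.67e-05), while its RNA was lower. At the Cish promoter (chr9:107296184-107297184) it was 202, 256 and 252 against 238, 123 and 75.8 (0.85, adjusted p = 0.0467), with control P1898 between the knockouts, and Cish RNA was lower. At the promoters of Gbp7 and Ppp1r12b, printed above, the changes were -0.26, adjusted p = 0.203 and 0.28, adjusted p = 0.0592.

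**Figure D5:**
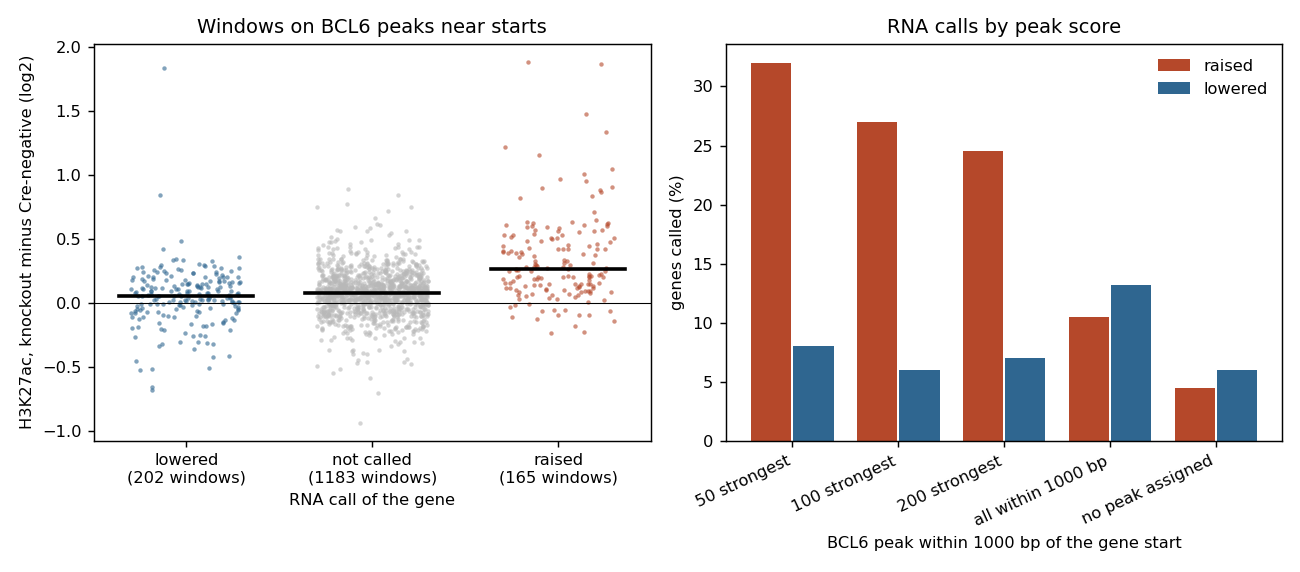
Left, change in H3K27ac (knockout minus Cre-negative, log2) in windows on BCL6 peaks within 1000 bp of a gene start, 1 point per window and the median as a line, by the RNA call of the gene. Right, percent of genes raised (red) and lowered (blue) among those with the 50, 100 and 200 highest peak scores within 1000 bp, all with such a peak, and those nearest to no peak. The median is 0.266 for raised genes, 0.0565 for lowered and 0.0802 for genes not called, and the share raised is 27% among the 100 highest scores and 4.48% without a peak.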

How the data were processed

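Poly(A) RNA of mouse quadriceps was sequenced in 5 knockout, 4 Cre-negative and 4 oil-treated mice. Per the submitters' processing notes, mm10 was used with STAR 2.4.0, Bowtie 1.2, HOMER and DESeq2 1.14.1, and the deposited poly(A) and nascent values are on a log2 scale. Per the file headers, HOMER counted exon tags of both strands, and the transform that followed is not named. The deposited RiboTag table holds counts per gene with at most 5 tags per position. The deposited H3K27ac table holds a signal in 1000 bp windows scaled to 10000000 tags, from which 100% of values gave whole reads within 0.05, and the deposited BCL6 peak list an authors' peak score. The authors' deposited fold changes (log2 fold) and adjusted p-values were used only for a count of calls and 1 comparison of ranks. By these values 542 genes were called raised and 1065 lowered, of which limma also called 530 and 1048.

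Log2 values were tested in limma 3.58.1 with a variance trend (genes with a mean of at least log2 of 10), H3K27ac as log2 of signal plus 1 (mean of at least 10 reads), and counts in edgeR 4.0.16 (quasi-likelihood, TMM), with Benjamini-Hochberg adjustment over each table at 0.05. DESeq2 1.42.0, R 4.3.3, Python 3.11.15 and pandas 2.3.3 were also used. The fits were tested on simulated data. Genes named are Bcl6, the 15 most raised and 15 most lowered called genes with a mean of at least 6 and groups without overlap, and of each of 46 pathway and 12 marker lists up to 3 called members and the first as written. Not all of these are printed. Other genes named, including the called members given for short lists, were chosen after their values were seen. The genes compared and the lists were chosen with earlier results of these data known. Sequences came from RefSeq (GRCm38.p6). The acute and chronic H3K27ac series, the inputs and the footprints were not used here.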

Additional observations from a re-analysis of the deposited data

Results flagged for a closer look

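Among 386 groups of 4 or 5 libraries, for the 193 genes named, 11 held a library farther from the others than Dixon's 95% critical value allows. Chance gives about 1 in 20 groups. Cre-negative library P1898 stood below its group for Esr1, at 9.551 where the others lay at 9.771 to 9.811. Socs2 was high in knockout library P1900, at 9.115 against 8.847 to 8.92 in the rest of its group. Knockout library P1896 stood below its group for Prkab2, at 11.01 where the others lay at 11.09 to 11.12. Fbxo32 was high in Cre-negative library P1909, at 11.67 against 11.61 in the rest of its group. Cre-negative library P1906 stood below its group for Ctsd, at 11.06 where the others lay at 11.13 to 11.14. Asb4 was high in knockout library P1911, at 8.634 against 8.293 to 8.386 in the rest of its group. Cre-negative library P1899 stood below its group for Cd82, at 7.718 where the others lay at 7.92 to 7.952. Dlk1 was high in Cre-negative library P1898, at 5.474 against 5.397 to 5.4 in the rest of its group. Cre-negative library P1906 stood below its group for Eif4g1, at 11.81 where the others lay at 11.91. Mirg was high in Cre-negative library P1899, at 6.568 against 6.522 to 6.524 in the rest of its group. Cre-negative library P1906 stood below its group for Mt1, at 6.965 where the others lay at 7.091 to 7.117.

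For 5 genes, all knockout libraries lay on one side of their controls in poly(A) RNA and on the other side in RiboTag mRNA. With the change in poly(A) RNA first and in RiboTag mRNA second, they were Fos (-0.361 and 2.45), Dusp1 (-0.283 and 0.446), Kcnc4 (-0.165 and 0.455), Neto2 (0.0744 and -1.17) and Xrcc5 (0.106 and -0.42). The difference between the comparisons was not tested.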

How the results depend on the processing

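No paired analysis was possible because the groups share no replicate numbers. Without the filter on low values, which adds genes to the adjustment, limma called 533 raised and 854 lowered genes, and leaving out 1 library at a time gave 647 to 716 and 1051 to 1215. Lowered genes also lowered in RiboTag mRNA numbered 335 with DESeq2, and 152 to 279 with 1 RiboTag library left out. By edgeR on recovered reads 1008 H3K27ac windows were raised and 382 lowered, and with 1 library left out limma called 958 to 1542 and 57 to 147. The recovered-read test and the leave-one-out fits of windows and RiboTag libraries were chosen after seeing the data. Quantile normalization turned the sign of Acta1 (0.11), Akt2 (0.02) and Eif4g1 (0.0102). The cause was not tested. Of 184 called genes named in the report, 114 kept their call in all 15 alternatives, 67 lost it in some setting of scaling, filter or model, and 36 lost it without some library. These are, with the highest adjusted p of limma in brackets, Acot1 (0.0552), Acvr2a (0.0952), Asb11 (0.0939), Asb2 (0.0572), Bcorl1 (0.0879), Cd82 (0.114), Chrnb1 (0.121), Chrnd (0.106), Col1a1 (0.0611), Eef1b2 (0.125), Eif4g1 (0.0687), Erbb3 (0.122), Fasn (0.0649), Fbxo32 (0.0626), Fkbp5 (0.101), Flt1 (0.0876), Grb10 (0.0995), Igf1r (0.0689), Mknk1 (0.0939), Mknk2 (0.0641), Mt1 (0.0997), Myl3 (0.0846), Pdk1 (0.079), Pik3cb (0.088), Pik3r2 (0.0635), Pik3r3 (0.058), Prkab1 (0.0822), Prlr (0.106), Psmd5 (0.0728), Slc2a1 (0.0993), Stat6 (0.113), Tcf7l2 (0.0789), Tfeb (0.0674), Tnc (0.0521), Wnt9a (0.0677) and Xrcc5 (0.114). The poly(A) table gives transformed values and no counts, so no interval for counting error was computed. The number of libraries limits which small changes pass.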
